A study of Mus musculus with 16 samples.

Results

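Box C/D small nucleolar RNAs (snoRNAs) with individual Snord names were examined in the prefrontal cortex of PS19 and wild-type (WT) mice. They were taken as every feature of the ncRNA table whose name begins with Snord, leaving out Snord32a, Snord33, Snord34 and Snord35a of the Rpl13a locus and the Snord64, Snord107, Snord115 and Snord116 names. This gave 74 snoRNAs out of 97 Snord names, 824 snoRNA features and 18488 features in all. Small ncRNA libraries were sequenced from 8 PS19 and 8 WT mice, 1 library per mouse, to ask which ncRNAs differ with tauopathy. PS19 mice were heterozygous (PS19+/-) for a mutant human tau (MAPT) transgene driven by the mouse prion protein promoter, on a mixed C57BL/6 and C3H background, and WT mice were their littermates. Both groups held males and females in equal numbers according to the methods of the study, and the sex of each library was not given in the labels. Tau mRNA, which would check the genotype labels, was not analysed here.

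Box C/D snoRNAs guide fibrillarin, a methyltransferase, to chosen riboses of ribosomal RNA (rRNA), where it adds a 2′-O-methyl group. Each is bounded by a C box near its start and a D box near its end, which bind the core proteins of the particle. Most vertebrate box C/D snoRNAs are not transcribed on their own but are trimmed out of introns of host genes, many of which encode ribosomal proteins, nucleolar proteins and translation factors, or are long non-coding RNAs with no known protein. A few, such as U8 (Snord118), U14 (the Snord14 genes) and U22 (Snord22), take part in the cleavage and folding of precursor rRNA. U13 (Snord13) acts in rRNA acetylation.

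Levels differed far more between the snoRNAs than between the genotypes, and 2 of them dominated. Snord2, from an intron of the translation initiation helicase gene Eif4a2, and Snord49a, from the long non-coding host 2410006H16Rik, together held 59.7% ± 2.28 of the signal of the 74 in PS19 libraries and 60.5% ± 2.18 in WT (SD, n = 8 each). At the other end, Snord14a, from the ribosomal protein gene Rps13, had at most 11 reads in a library. The sequences printed here are those of the 2 most abundant snoRNAs and the pair from the non-coding host Gas5 that were most unequal in level (Snord80 and Snord78). They are printed 5′ to 3′ from the GENCODE M21 transcripts (GRCm38), with the C box core TGATG or TGATGA and the D box CTGA in capitals. Snord2 lies at chr16:23108953-23109021 and Snord49a at chr11:62603450-62603521, both on the plus strand. Snord80 lies at chr1:161037601-161037681 and Snord78 at chr1:161036984-161037049, both on the plus strand and in introns of Gas5.
Snord2: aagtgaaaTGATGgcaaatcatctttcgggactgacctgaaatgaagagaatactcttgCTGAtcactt
Snord49a: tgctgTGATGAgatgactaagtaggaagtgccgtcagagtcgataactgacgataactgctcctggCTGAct
Snord80: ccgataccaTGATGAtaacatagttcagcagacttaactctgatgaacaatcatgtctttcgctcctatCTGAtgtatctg
Snord78: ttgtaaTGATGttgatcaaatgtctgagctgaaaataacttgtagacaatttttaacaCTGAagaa

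The names were checked against these sequence features. Lengths ran from 64 to 238 nt with a median of 78.5 nt. TGATG was found within the first 25 nt of 63 of the 74 sequences (85.1%), and the longer TGATGA, which contains it, in 48 (64.9%). CTGA was found within the last 25 nt of 73 (98.6%), and 62 (83.8%) held both. Only the printed strand was searched. Among 39 box H/ACA snoRNAs (Snora names), which guide pseudouridylation instead, 0 held TGATG in that window, 5 (12.8%) held CTGA and 0 held both. Of the 11 Snord sequences without TGATG, 6 held GGATGA in the same window, and 0 of the 39 Snora sequences did. Snord57, from an intron of Nop56, which encodes a core protein of the box C/D particle itself, is one of these and is shown for that reason. It lies at chr2:130278016-130278087 on the plus strand, and the capitals mark its D box. Snord13 and Snord118 were among the 5 with neither.
Snord57: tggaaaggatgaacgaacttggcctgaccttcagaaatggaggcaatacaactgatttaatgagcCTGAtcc

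Signal here is the number of reads assigned to a feature divided by 1 size factor per library. Each library held between 13.2 M and 23.1 M recovered reads summed over all features, in which some reads may be counted more than once. At this depth 51 of the 74 snoRNAs had at least 100 reads in every library. Levels are compared between snoRNAs per 100 nt. How evenly different snoRNAs entered these small RNA libraries was not tested, and reads need not scale with length. The levels therefore describe library signal and not measured amounts of RNA. Snord2 averaged 476237 per 100 nt over the 16 libraries and Snord49a 403835. Snord2 was above Snord49a in 11 of 16 libraries, so their order was not the same in every mouse. A step of 4.03-fold, present in 16 of 16 libraries, separated Snord49a from Snord59a (100137), which comes from Atp5b, the gene of a mitochondrial ATP synthase subunit. Next came Snord99 (68598, host Snhg12), below Snord59a in 15 of 16 libraries. Snord57 (44268) and Snord80 (43359) could not be ordered, with Snord57 the higher in 7 of 16 libraries. Snord95 (39388), from the ribosomal scaffold gene Rack1, followed, and Snord80 exceeded it in 9 of 16. The median over all 74 was 1010 and the lowest was Snord14a at 3.71 per 100 nt.

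**Figure D1:**
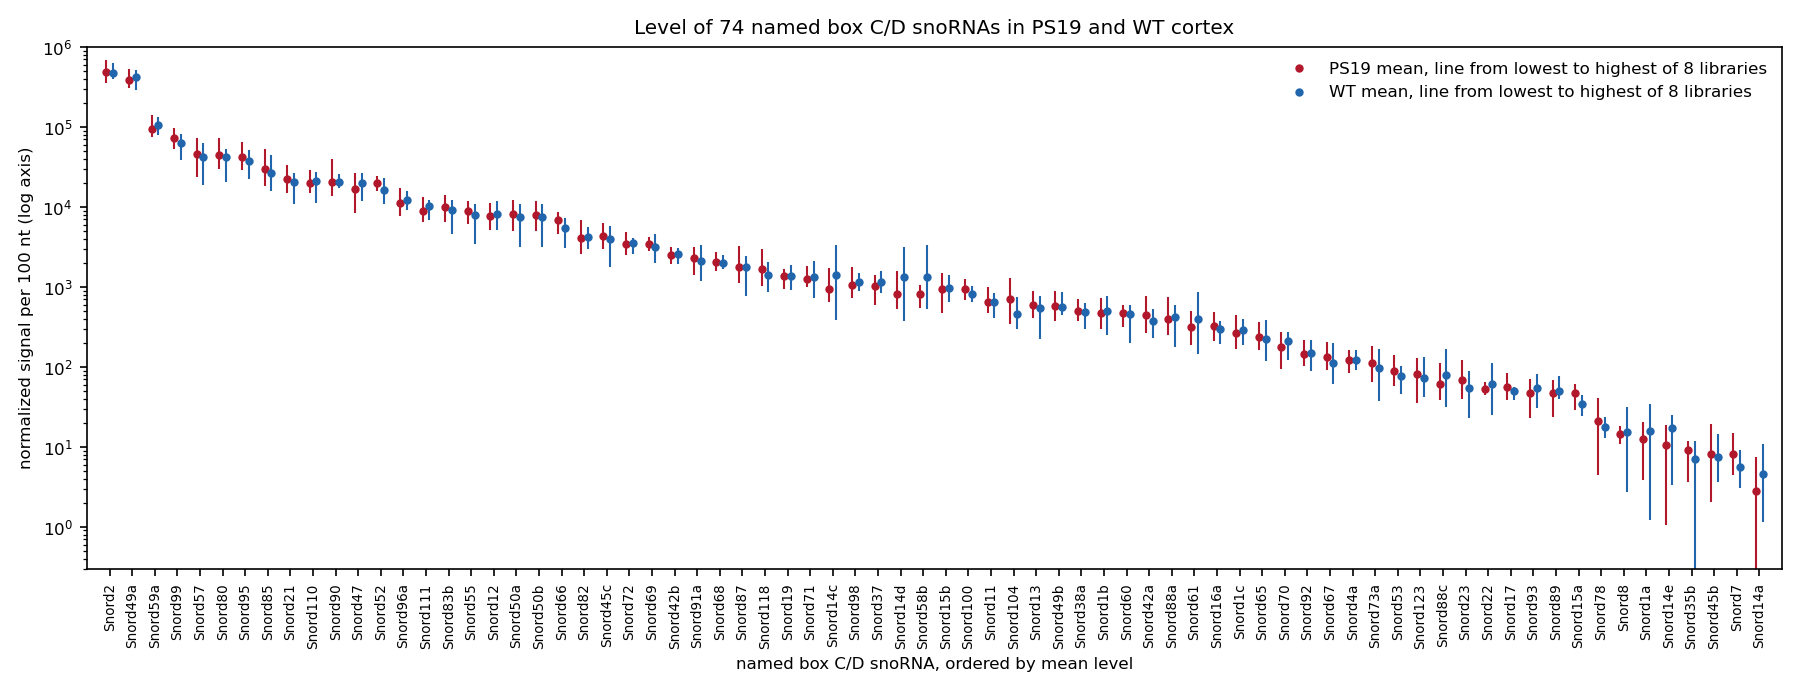
Mean normalized signal per 100 nt (log axis) of the 74 named box C/D snoRNAs, ordered by level, in PS19 (red) and WT (blue), with lines from the lowest to the highest of 8 libraries. The levels run from 476237 to 3.71 while the red and blue lines of each snoRNA overlap, and lines that leave the lower edge reach 0.

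As a whole, the 74 snoRNAs took up a like share of the libraries in both genotypes. In PS19 they held 6.27% ± 1.65 of all signal and in WT 6.12% ± 1.36 (SD, n = 8 each), so the means lay 0.15 percentage points apart, within the SD of either group. The sign of this difference rests on single libraries, since it was -0.31 when PS19 replicate 8 was left out and 0.50 when WT replicate 6 was. Of the snoRNA signal alone, PS19 libraries gave them 40.6% ± 2.0 and WT libraries 40.4% ± 1.76 (SD, n = 8 each). Both shares overlapped widely between the groups. All signal is a sum over features, some of which carry nearly the same values, as described further on. Some reads may therefore be counted more than once in it. The 39 box H/ACA snoRNAs gave little signal beside them, and the summed signal of the 74 exceeded Snora signal 149-fold to 399-fold in the 16 libraries. Snora sequences are longer (121 to 205 nt, median 133 nt against 78.5 nt), and these sums are not per length. Whether longer RNAs entered these small RNA libraries less well was not tested.

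No named box C/D snoRNA differed between PS19 and WT at an unadjusted p under 0.05 in limma. Of the 74, 73 had a mean signal of at least 5 and were tested, Snord14a being the exception. Among them 0 of 73 reached that level, beside 4.0% of all 6024 tested features, and the smallest p was 0.0559. Adjusted over all 6024 features, p was 0.9998 for each of the 73. The 73 estimates stood on both sides of 0, with 42 (57.5%) higher and 31 lower in PS19 and a median log2 difference of 0.02. This balance rests on single libraries and on the library code, with 26 of 73 higher (median -0.08) without WT replicate 4 and 63 of 73 higher (median 0.25) with a term for the library code letter, as described further on. Over all tested features the median was -0.02 and 46.8% were higher. In 0 of 73 did the 8 PS19 and 8 WT values fail to overlap, as they did in 0.0996% of all features. Count tests on the recovered reads gave 1 snoRNA at an unadjusted p under 0.05 with edgeR (Snord15a, beside 4.4% of all features) and 2 with DESeq2 (Snord15a higher and Snord58b lower in PS19, beside 4.7%), and 0 after adjustment. In bulk tissue, fewer cells of a type and less RNA per cell cannot be told apart.

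The intervals show how large a difference could have gone unseen in the fit with genotype only. In 66 of the 73 snoRNAs (90.4%) the 95% interval of the log2 difference lay within 2-fold in either direction, beside 66.4% of all tested features. In 28 (38.4%) it lay within 1.5-fold, beside 10.5%. The median distance from the estimate to the end of the interval was 0.48. Snord2 had the narrowest interval, from -0.28 to 0.38 around a log2 difference of 0.05. The 7 intervals that went beyond 2-fold belonged to Snord1a, Snord14c, Snord14d, Snord14e, Snord35b, Snord58b and Snord104, so larger differences remained possible there at this depth and spread.

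**Figure D2:**
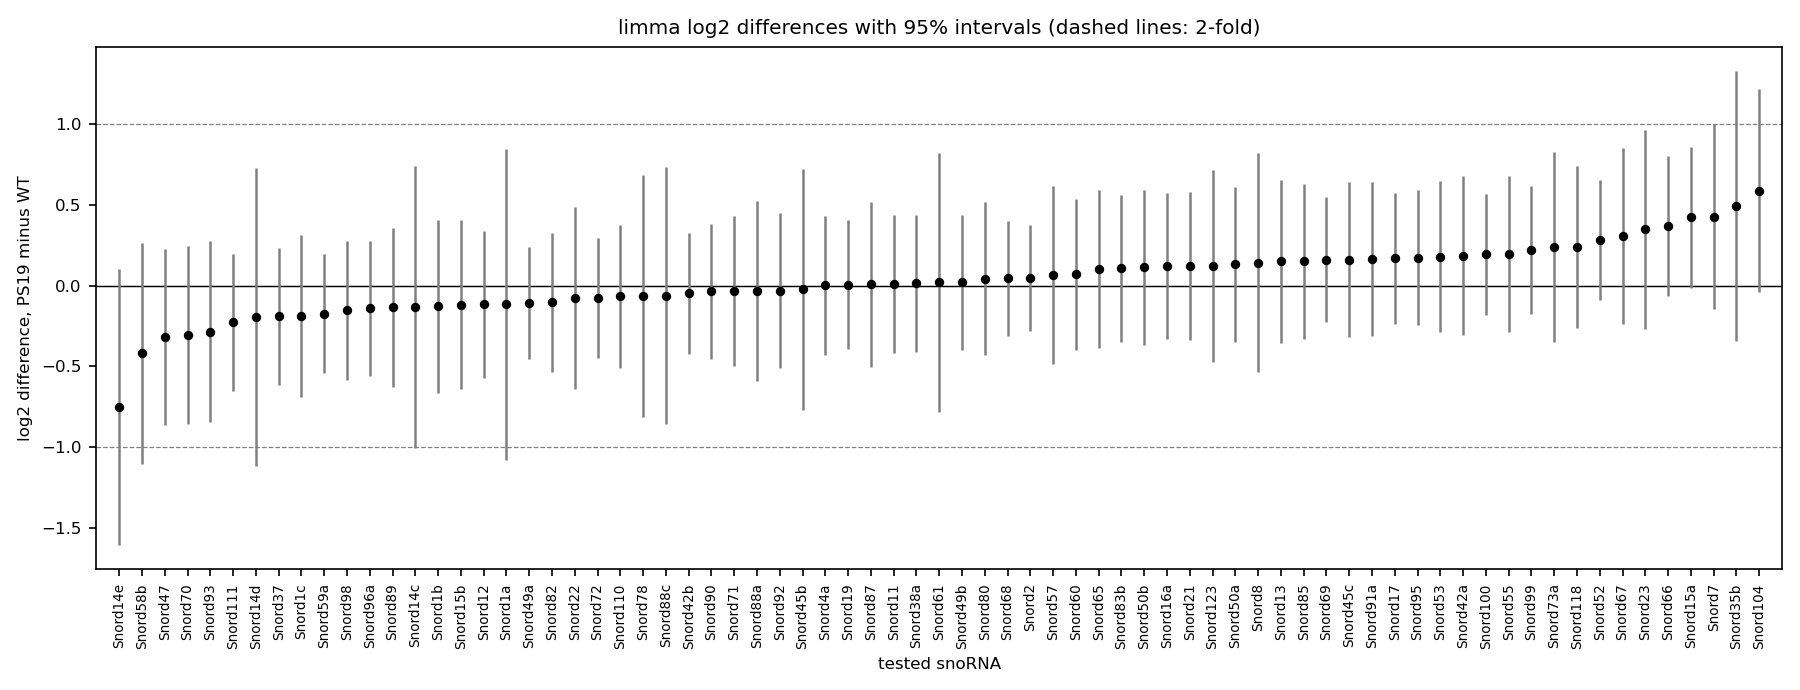
Log2 difference, PS19 minus WT, of the 73 tested snoRNAs from limma (points) with 95% intervals (lines), ordered by size, and dashed lines at 2-fold. The estimates run from -0.75 (Snord14e) to 0.59 (Snord104), every interval includes 0, and 66 of 73 stay within the dashed lines.

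The snoRNA with the smallest p was Snord15a, from an intron of the ribosomal protein gene Rps3. It is printed here with Snord104, the largest positive estimate, and Snord14e, the largest negative one, from an intron of the constitutive chaperone gene Hspa8. Snord15a lies at chr7:99482785-99482932 on the minus strand, Snord104 at chr11:106500993-106501062 on the plus strand and Snord14e at chr9:40804748-40804837 on the plus strand (GRCm38). Capitals mark the C box core and the D box.
Snord15a: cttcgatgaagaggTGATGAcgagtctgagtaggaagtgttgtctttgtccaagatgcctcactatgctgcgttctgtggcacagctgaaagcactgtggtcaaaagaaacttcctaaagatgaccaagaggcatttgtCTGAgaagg
Snord104: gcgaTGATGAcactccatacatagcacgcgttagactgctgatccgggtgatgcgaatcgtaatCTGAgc
Snord14e: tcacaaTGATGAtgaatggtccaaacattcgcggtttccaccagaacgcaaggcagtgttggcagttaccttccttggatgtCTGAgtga

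Normalized signal of Snord15a ran from 43.3 to 89.7 with a median of 69.0 in the 8 PS19 libraries, and from 36.1 to 66.6 with a median of 47.2 in the 8 WT libraries. All but 1 of the PS19 libraries lay above the WT median, but the groups overlapped. The log2 difference was 0.42 ± 0.21 (SE, limma p = 0.0559), and the two-sided exact permutation test over 12870 assignments of the libraries, used for each single snoRNA from here on, gave p = 0.0261. This was the only one of the 73 with an exact p under 0.05, beside 4.22% of all tested features. With the replicate number as a block or as a linear term its unadjusted limma p was also under 0.05, while the adjusted p in limma was 0.709 and 0.864. With the code letter as a term the log2 difference was 0.29 ± 0.35 (SE), and with that term, array weights or no filter its unadjusted limma p was above 0.05. WT replicates 1, 2 and 3 were the 3 highest WT libraries, at 66.6, 59.0 and 61.6, with at most 50.3 in the other 5. Rps3 also hosts Snord15b, 23.6-fold more abundant per length, for which the log2 difference was -0.12. A circRNA feature carried nearly the same values as Snord15a (r = 0.9995 over 16 libraries), so the same reads appear to be counted under both names.

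Snord104 has no annotated host on its strand. Its signal ran from 243 to 900 with a median of 422 in PS19 and from 210 to 524 with a median of 226 in WT. Every PS19 library was above the WT median, while WT replicates 1, 2 and 3 lay inside the PS19 range and the other 5 WT libraries, at 210 to 239, all lay below it. The log2 difference was 0.59 ± 0.30 (SE, exact permutation p = 0.0889). Snord104 also went with the replicate number, and those 2 fits brought its unadjusted limma p under 0.05, with an adjusted p of 0.678 and 0.770 in limma.

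Snord66, from an intron of the translation initiation scaffold gene Eif4g1, ran from 3453 to 6438 with a median of 5470 in PS19 and from 2306 to 5510 with a median of 3898 in WT. The groups overlapped over most of their ranges, with 6 of 8 PS19 libraries above the WT median (log2 difference 0.37 ± 0.21 SE, exact permutation p = 0.0775). Snord52, from the non-coding host 1110038B12Rik, had medians of 13260 in PS19 (10394 to 15872) and 10349 in WT (7170 to 15324). Every PS19 library lay above the WT median, and WT replicates 1 and 3 reached the upper PS19 values (log2 difference 0.28 ± 0.18 SE, exact permutation p = 0.0668). Snord7 was near the detection limit, with 3 to 13 reads per library (log2 difference 0.43 ± 0.28 SE, exact permutation p = 0.0802).

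Among the snoRNAs with lower estimates in PS19, Snord14e ran from 0.949 to 16.7 with a median of 9.22 in PS19 and from 3.02 to 22.2 with a median of 16.5 in WT. All but 1 of the PS19 libraries lay below the WT median, on 1 to 28 reads per library (log2 difference -0.75 ± 0.41 SE, exact permutation p = 0.124). Snord58b, from the ribosomal protein gene Rpl17, had nearly equal medians of 538 in PS19 (360 to 696) and 505 in WT (347 to 2235). The WT mean was raised by replicates 1, 2 and 3, at 1297, 1226 and 2235, and no other library of either genotype exceeded 696. Its log2 difference was -0.42 ± 0.33 (SE, exact permutation p = 0.268). Snord47, the third Gas5 snoRNA, had medians of 14354 in PS19 (6553 to 20662) and 16261 in WT (9077 to 20510), and both genotypes held libraries at either end of the range (exact permutation p = 0.274). Snord70, from Nop58, whose product is another core protein of the particle, gave a log2 difference of -0.30 (exact permutation p = 0.262). Snord111, from the splicing factor gene Sf3b3, gave -0.23 (exact permutation p = 0.242).

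**Figure D3:**
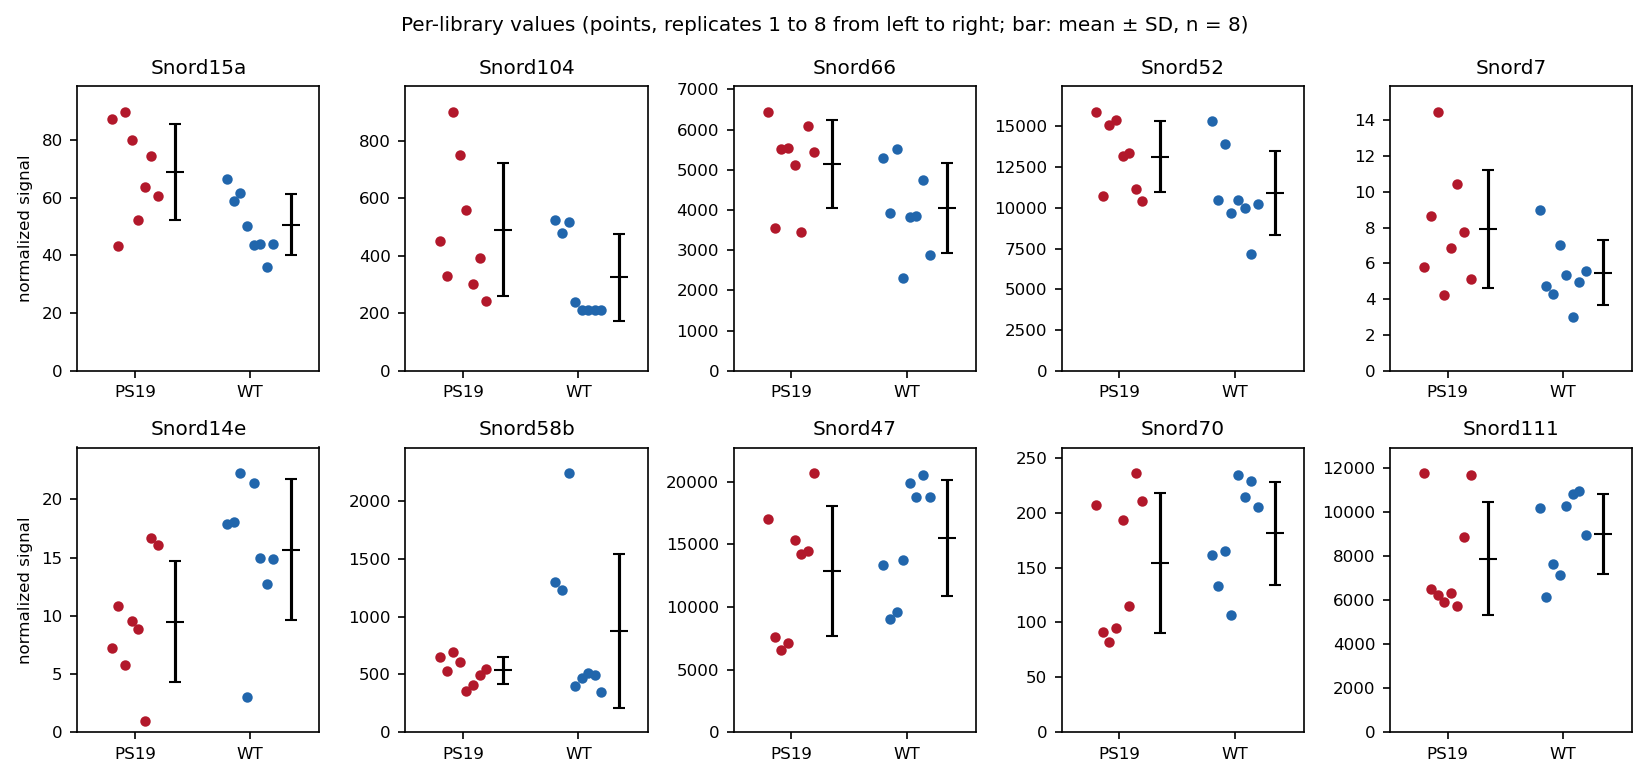
Normalized signal in each of 8 PS19 (red) and 8 WT (blue) libraries for the 5 snoRNAs higher and the 5 lower in PS19 with the smallest limma p, replicates 1 to 8 from left to right, with mean ± SD bars. The groups overlap in every panel, and in Snord15a, Snord104 and Snord58b the first 3 WT points stand above the other 5.

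The most abundant snoRNAs were measured with the most reads and showed small differences in the genotype-only fit. Snord2 ran from 244138 to 481215 with a median of 328796 in PS19 and from 274849 to 434584 with a median of 299463 in WT. For Snord49a the PS19 values were 219946 to 381385 with a median of 254303 and the WT values 208371 to 367740 with a median of 313450. In each the range of one genotype covered nearly all of the other. The log2 difference was 0.05 ± 0.16 (SE, exact permutation p = 0.715) for Snord2 and -0.11 ± 0.17 (SE, exact permutation p = 0.468) for Snord49a. It was -0.17 for Snord59a, 0.22 for Snord99, 0.07 for Snord57 and 0.04 for Snord80, with two-sided exact permutation p from 0.232 to 0.858. With the code letter as a term, described further on, Snord99 came to 0.63, with an unadjusted limma p under 0.05 that did not pass adjustment. In that fit Snord49a and Snord59a changed sign.

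The snoRNAs that act in precursor rRNA processing or in rRNA acetylation were considered apart. Of these 7, 6 were tested, 2 were higher and 4 lower in PS19, and 0 had an unadjusted limma p under 0.05, beside the 4.0% given above. These directions rest on WT replicates 1, 2 and 3, described further on, without which 5 of the 6 estimates were higher and 1 lower. Snord118 (U8), needed for maturation of the large-subunit rRNAs, ran from 1404 to 4019 with a median of 2150 in PS19 and from 1163 to 2782 with a median of 1783 in WT. The WT range lay mostly within that of PS19 (log2 difference 0.24 ± 0.24 SE, exact permutation p = 0.334). Snord13 (U13) had medians of 560 and 547 (log2 difference 0.15, exact permutation p = 0.569). With the code letter as a term its log2 difference was 0.80, with an unadjusted limma p under 0.05 that did not pass adjustment. Snord22 (U22), from the non-coding host Snhg1, spread more widely in WT, from 31.2 to 141, than in PS19, from 56.0 to 82.6 (log2 difference -0.08, exact permutation p = 0.785). Snord14a was too low to test, with a median signal of 2.55 in PS19 (0 to 6.54) and 4.12 in WT (1.01 to 9.51).

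Grouped by host gene, the snoRNAs gave no host class in which any snoRNA passed an unadjusted limma p of 0.05. Long non-coding hosts carried 21 snoRNAs and 41.1% of the signal of the 74, and 11 were higher and 10 lower in PS19 (median log2 difference 0.01). Ribosomal protein genes hosted 17, of which 16 were tested, and 12 were higher and 4 lower (median 0.11). Nucleolar protein genes hosted 11, with 7 higher and 4 lower (median 0.01), and other protein-coding genes 19, with 7 higher and 12 lower (median -0.03). The last count rests on WT replicates 1, 2 and 3, without which 13 of the 19 were higher and 6 lower (median 0.28). Leaving them out also raised the other medians, to 0.16 for long non-coding, 0.22 for ribosomal protein and 0.18 for nucleolar protein hosts. For translation factor hosts the median became 0.14, and for no annotated host 0.50. Leaving out WT replicate 4 instead left 26 of all 73 estimates higher. The 3 from translation factor genes held 32.3% of the signal, nearly all of it Snord2. The median over all tested features was -0.02. The 3 without a host, Snord13, Snord104 and Snord118, had estimates of 0.15 to 0.59 (median 0.24). The 3 from Hspa8, Snord14c, Snord14d and Snord14e, had estimates of -0.13 to -0.75, and none of their intervals stayed within 2-fold. Without the same 3 WT libraries Snord14c and Snord14d came to 0.79 and 0.78, and leaving out WT replicate 2 or 3 alone also turned their sign. For comparison, the 36 tested Snora snoRNAs had 10 higher and 26 lower with a median of -0.15.

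Sharing a host did not mean sharing a level of library signal. Of the hosts, 15 carried at least 2 of the snoRNAs, 35 in all. The fold between the highest and the lowest of a host, per length, had a median of 17.1, and it exceeded 10-fold in 8 of the 15. The widest was in Gas5, a non-coding transcript that accumulates in growth-arrested cells, where Snord80 was 2236-fold above Snord78. Snord78 had 3 to 45 reads per library and Snord80 had 16746 to 63475, although their introns belong to 1 transcript and their sequences, printed above, carry both boxes. Next were 2410006H16Rik, where Snord49a was 1753-fold above Snord65, and Rabggtb, a prenyltransferase subunit gene, where Snord45c was 533-fold above Snord45b. In 14 of the 15 hosts the highest snoRNA was above the lowest in 16 of 16 libraries. How the authors' counting split reads that fit several copies of a gene is not given in the sources used here.

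**Figure D4:**
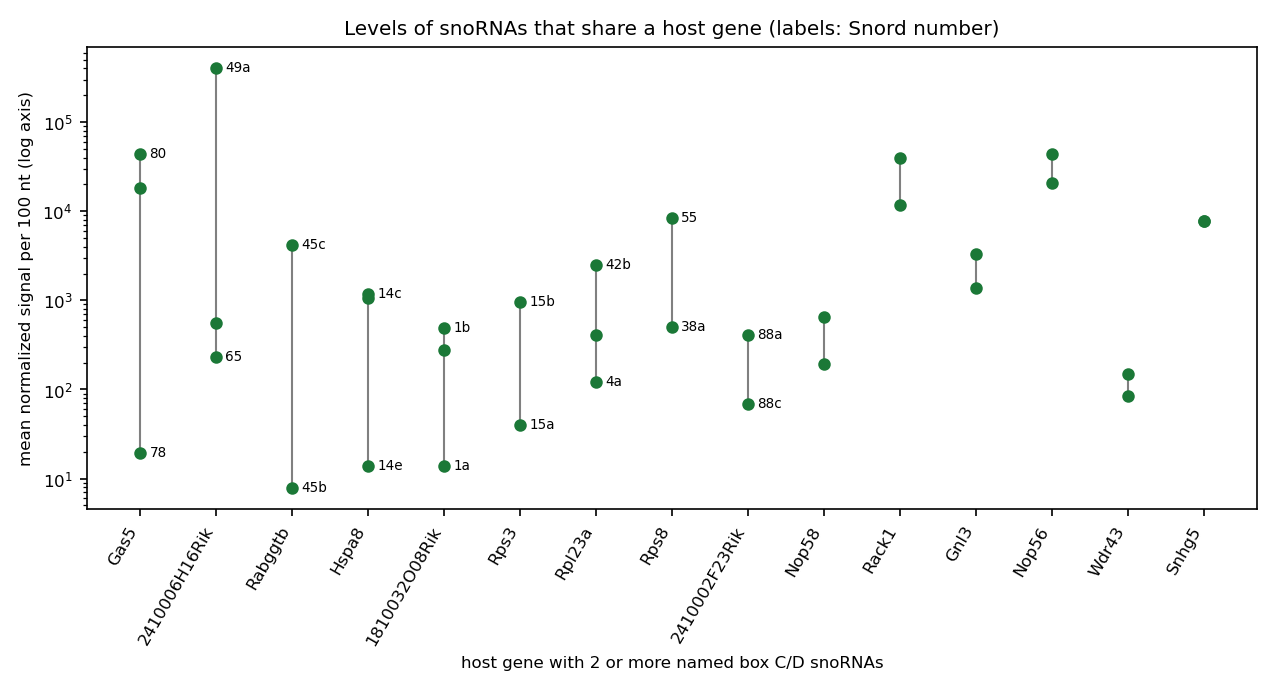
Mean normalized signal per 100 nt over the 16 libraries (log axis) of snoRNAs that share a host gene, joined by a line per host and ordered by the fold between highest and lowest, with Snord numbers for the more unequal hosts. Gas5 spans 2236-fold from Snord80 to Snord78, while the 2 snoRNAs of Snhg5 differ 1.01-fold.

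The exception among the hosts was Snhg5, whose Snord50a and Snord50b differed 1.01-fold and in 13 of 16 libraries. Their sequences, 72 nt each, differ only by C50A, counted from 1 at the 5′ end with the base of Snord50a first, and their values moved together (r = 0.995 over 16 libraries). Snord14c and Snord14d of Hspa8, printed because the library pattern described next was widest in them, are both 86 nt long and differ by G47A and A49G, with the base of Snord14c first (r = 0.996 over 16 libraries). Reads that do not cover these positions fit either copy, so the values of each pair are uncertain one by one. Snord14c lies at chr9:40803583-40803668 and Snord14d at chr9:40803995-40804080, both on the plus strand (GRCm38). Over the whole table, 5 of the 74 had another snoRNA feature with nearly the same values (r of at least 0.99 and means within 2-fold), and 9 had such a circRNA feature.
Snord14c: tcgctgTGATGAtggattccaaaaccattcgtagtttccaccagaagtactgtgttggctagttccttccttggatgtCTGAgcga
Snord14d: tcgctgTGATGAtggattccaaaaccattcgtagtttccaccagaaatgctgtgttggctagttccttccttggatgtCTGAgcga

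WT libraries fell into separate levels for several of the snoRNAs. WT replicates 1, 2 and 3 were the 3 highest of the 8 WT libraries in 17 of the 73, beside 9.88% of all tested features. In Snord14c their signal was 1950, 2858 and 2617, while the other 5 WT libraries had 332 to 535 and PS19 libraries 553 to 1489. PS19 therefore lay between the 2 levels of WT, above the lower one in 8 of 8 libraries. Snord61, from the X-linked splicing regulator gene Rbmx, had 506, 611 and 524 in those WT libraries, 102 to 146 in the other 5 and 132 to 350 in PS19. Snord88c had 108, 152 and 150 against 28.0 to 35.6, with PS19 at 34.6 to 100. Snord22, Snord58b, Snord1a and Snord104 showed the same split. Snord47 ran the other way, with 13362, 9077 and 9636 in WT replicates 1, 2 and 3 and 13749 to 20510 in the other 5. Across all 16 libraries Snord47 was the snoRNA most opposite to Snord14c (r = -0.62, as a description). These 3 libraries did not share a library code letter, the labels giving F, G and A.

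**Figure D5:**
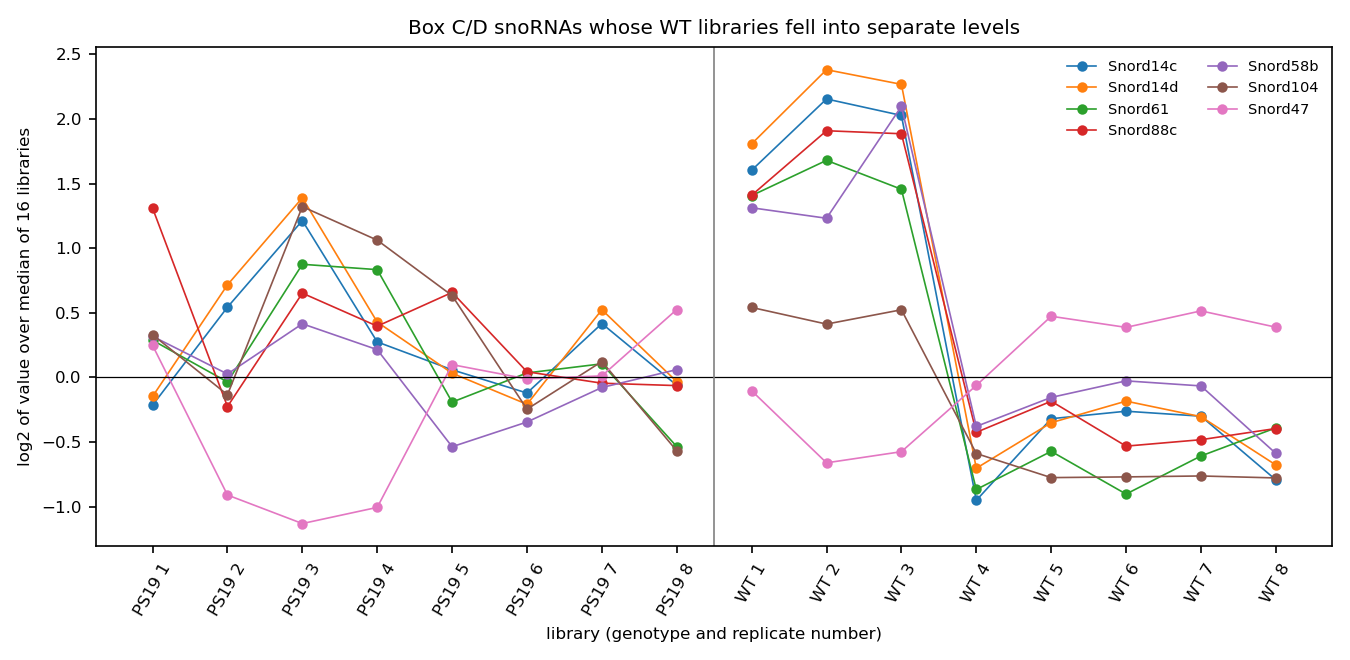
Log2 of each value over the snoRNA's median of 16 libraries, for 7 snoRNAs, by library, with PS19 left and WT right of the grey line and replicate numbers from the labels. WT replicates 1 to 3 stand above the other 5 WT libraries in 6 snoRNAs and below them in Snord47, and PS19 replicates 2 to 4 are also low in Snord47.

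Because these 3 WT libraries were picked on their values, the comparison was repeated without them only as a description of how much they weigh. Without them 10 of the 73 snoRNAs had an unadjusted limma p under 0.05, 9 higher and 1 lower in PS19, beside 8.08% of all tested features, and 0 passed after adjustment. The log2 difference was then 1.05 for Snord104 (adjusted p = 0.224 in limma), 0.84 for Snord61 and 0.79 for Snord14c, and it was -0.61 for Snord47. Of the 73 estimates, 11 turned from lower to higher in PS19, among them Snord14c, Snord14d, Snord22, Snord58b, Snord1a and Snord88c (-0.06 with all libraries and 0.73 without the 3), and 1, Snord57, turned from higher to lower. What the 3 libraries share was not tested.

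The replicate number itself, taken as a linear term over both genotypes, went with 10 of the 73 snoRNAs at an adjusted p under 0.05 in limma (13.7%), beside 18.3% of all tested features. The signal was lower at higher numbers for 9 of these, Snord14c, Snord14d, Snord58b, Snord61, Snord85, Snord88c, Snord91a, Snord104 and Snord118, and higher for Snord47. What the numbers stand for was not stated. With the code letter as a term (G in all 8 PS19 libraries and 2 WT libraries, F in 4 WT, A in 2 WT), 4 of 73 had an unadjusted limma p under 0.05, all higher in PS19, beside 2.06% of all tested features, and 0 after adjustment. These were Snord13 (log2 difference 0.80), Snord45c (0.76), Snord66 (0.74) and Snord99 (0.63). In that fit the genotype rests on 8 PS19 and 2 WT libraries (replicates 2 and 4). WT replicate 4 had the lowest level of all libraries over the 74 snoRNAs, with a median log2 deviation of -0.60, and PS19 replicate 1 had the highest at 0.53. Without WT replicate 3, 51 of 73 estimates were above 0.

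Markers of the tissue were read from miRNAs of the same libraries. The neuronal miR-128-3p, miR-9-5p and miR-124-3p had medians of 564901, 137428 and 11174 in PS19 and 505559, 184278 and 12282 in WT. Blood miRNAs were low. Of the red cell pair, miR-144-3p had a median of 0 in both groups, and miR-451a had medians of 15.7 in PS19 and 10.9 in WT (log2 difference 0.52). Of the microglia and leukocyte pair, miR-142a-3p had medians of 2.58 in PS19 and 0 in WT, and miR-223-3p medians of 2.93 and 4.38. Markers of other tissues were not all low. Of the muscle pair, miR-1a-3p had medians of 5793 in PS19 and 6558 in WT, and miR-133a-3p 12.5 and 12.7. Liver miR-122-5p had medians of 248 and 270. The source of these miRNAs was not tested. Among 17 miRNA markers of neurons, glia, vessels, blood, choroid plexus, olfactory bulb, liver and muscle, 14 had a mean of at least 5 and were tested, and 0 of the 14 had an unadjusted limma p under 0.05 between the genotypes. The 3 not tested were miR-144-3p, miR-142a-3p and miR-223-3p, so neither microglia and leukocyte marker was tested. In WT replicates 1, 2 and 3, the neuronal miRNAs lay within the range of the PS19 libraries. Of the other markers, WT replicate 1 lay above every PS19 library for both olfactory bulb miRNAs, with miR-200a-3p at 264 (PS19 at most 105) and miR-200b-3p at 492 (PS19 at most 450). The highest values of both were in WT replicate 5, at 989 and 2099. WT replicates 1 and 3 did so for miR-223-3p, at 8.97 and 5.99 (PS19 at most 4.34). WT replicate 1 lay below every PS19 library for the choroid plexus miR-211-5p and WT replicate 2 for miR-451a. The part of these levels in the split of the snoRNAs was not tested.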

How the data were processed

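Small ncRNA libraries from prefrontal cortex (8 PS19 mice, 8 WT) were grouped by the genotype in the sample labels and named by the replicate number of the title. Per the labels and methods, the authors aligned reads to mm10 with STAR 2.5.3a inside COMPSRA and normalized counts with DESeq2 1.42.1. The deposited values are a normalized signal, namely counts divided by 1 size factor per library. Within a tolerance of 0.001, 100% of values were whole multiples of 1 read, so counts were recovered (in WT replicates 4 and 6 a read is worth nearly 1, which is weaker evidence). The authors' fold changes and p-values in the same table were not used.

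Features with a mean of at least 5 were tested on log2(value + 1) with limma 3.58.1 (lmFit, eBayes with trend, genotype only) in R 4.3.3, with Benjamini-Hochberg adjustment over all 6024. The log2 scale with this pseudocount understates the change of low snoRNAs. Single snoRNAs were also compared by two-sided exact permutation tests (smallest possible p 0.000155) in Python 3.11.15 with scipy 1.17.1. Fits were tested on simulated data. Hosts, positions and sequences came from GENCODE M21 on GRCm38, in which all 74 names were found, and a host is a gene on the same strand that spans the snoRNA. Because mm10 is GRCm38, the builds match.

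Named are the 5 higher and 5 lower snoRNAs with the smallest limma p, the 6 with the highest mean, the rRNA processing or acetylation group, the Gas5, Snhg1 and Hspa8 snoRNAs, and any whose groups do not overlap. Snord61, Snord88c, Snord1a, Snord35b and others named with their counts fall outside this rule and were picked once values were known. The snoRNAs, lists and tests were chosen with earlier results of these data known. Alternatives were edgeR 4.0.16, DESeq2 1.42.0, scaling to the library or snoRNA total, other filters and pseudocounts, array weights, replicate number and code letter as terms, and leaving out each library.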

Additional observations from a re-analysis of the deposited data

Results flagged for a closer look

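In 48 groups of 8 libraries, covering the 23 named snoRNAs and the share of signal held by all 74, 3 held a library whose gap to its nearest neighbour exceeded the Dixon 95% limit for 8 values. For independent groups of normally distributed values, about 1 in 20 would exceed it, or 2.4 here. These groups are not independent, and their distribution was not tested, so 2.4 is only a rough guide. Snord14c had 1489 in PS19 replicate 3, and the next PS19 library had 935, a gap of 0.591 of the range. Snord14d, which differs from Snord14c at 2 positions and may share reads with it, had 1373 in that library and 861 in the next, a gap of 0.557. These may therefore not be separate observations. Without PS19 replicate 3 the log2 difference was -0.27 for Snord14c and -0.34 for Snord14d. Snord14a had 9.51 in WT replicate 2, which is 10 reads, and 4.46 in the next WT library, a gap of 0.594.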

How the results depend on the processing

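No alternative gave any of the 73 tested snoRNAs an adjusted p under 0.05. The number at an unadjusted p under 0.05, 0 in limma, is given here with the share of all tested features in parentheses. It was 1 with edgeR (4.4%), without a filter beyond a value above 0 in 2 libraries (3.98%), with a mean of at least 20 (5.42%), with array weights (6.94%) and with only libraries coded G (2.01%). It was 2 with DESeq2 (4.7%), with scaling to the library total (3.04%) and with the replicate number as a linear term (5.56%), 4 with the code letter as a term (2.06%), and 10 without 3 WT libraries together (8.08%), which was chosen after seeing the data. Leaving out each library gave 0 to 2 (2.84% to 5.33%). Snord15a and Snord104 made up these calls with edgeR, library total, filters, array weights and replicate number, Snord15a and Snord58b with DESeq2, and Snord66 with libraries coded G. The cause was not tested.

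Same-numbered mice deviated together in part, with a correlation of deviations over 0.1 in 6 of 8 pairs (0.04 to 0.46) and 2 of 8 PS19 libraries matching their own number best. Pairing was taken to need a value over 0.1 in every pair, so the block is given only as an alternative, and a factor shared by equal numbers was not tested. With the replicate block 2 snoRNAs had an unadjusted limma p under 0.05, beside 6.96% of all tested features, Snord15a (adjusted p = 0.709 in limma) and Snord104 (adjusted p = 0.678 in limma).

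Of all 73 log2 differences, 23 changed sign with the letter as a term or with only libraries coded G, 12 without the 3 WT libraries, 11 with array weights and at most 16 on leaving out 1 library (WT replicate 4). Among the named snoRNAs that changed sign, the letter term, and equally only libraries coded G, gave 0.031 for Snord14e, 0.090 for Snord47, 0.25 for Snord70, 0.19 for Snord111, 0.30 for Snord49a, 0.19 for Snord59a and 0.10 for Snord78. Without the 3 WT libraries they were 0.25 for Snord58b, -0.0040 for Snord57, 0.79 for Snord14c, 0.78 for Snord14d and 0.39 for Snord22. Array weights gave -0.029 for Snord80, -0.0024 for Snord57 and 0.00067 for Snord14c. Snord78 came to 0.24 with edgeR, 0.23 with DESeq2 and 0.016 with a pseudocount of 5. Leaving out 1 library gave both signs for 8 of the named snoRNAs, -0.029 to 0.11 for Snord2, -0.096 to 0.11 for Snord80, -0.092 to 0.19 for Snord57, -0.021 to 0.23 for Snord13, -0.32 to 0.12 for Snord14c, -0.37 to 0.072 for Snord14d, -0.24 to 0.069 for Snord22 and -0.23 to 0.17 for Snord78. Of the other values, 580 kept their sign and their side of the threshold. Depth limits Snord14a, Snord7, Snord1a, Snord14e, Snord35b and Snord45b, with 0 to 30 reads per library, and near-identical copies limit Snord14c, Snord14d, Snord50a and Snord50b.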
